A study of Mus musculus with 27 samples.

Results

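Fatty acid uptake and oxidation in the mouse heart was described here through 38 genes, taken by symbol from the 22855 genes present in both the fibroblast and the whole heart count tables. The set was put together by function, by a rule that uses no measured value. The choice was made, however, with earlier results of these data known. The set was split into 8 groups by role. These were uptake and activation (5 genes), the carnitine shuttle (4), acyl-CoA dehydrogenases (4) and the later steps of the β-oxidation cycle (5). The others were auxiliary and peroxisomal enzymes (5), the electron transfer flavoprotein with its oxidoreductase (3), nuclear receptors and coactivators (5), and PPAR targets, thioesterases and uncoupling proteins (7). RNA-seq of polyadenylated RNA was available from C57Bl/6 mice, with no treatment or transgene named, at 5 ages that ran from postnatal day 1 over 4 and 14 weeks to 1 and 1.5 years. Whole heart was sampled 3 times at each age (15 samples). Cardiac fibroblasts were sorted by flow cytometry as PDGFRα-positive cells from the nonmyocyte fraction of digested ventricles. They were sampled 3 times at day 1 and at 4 weeks and 2 times at each later age (12 samples). The study's methods speak of separate animals at each time point and of fibroblasts sorted from different hearts, but the labels do not tie a sample to an animal or a fibroblast sample to a heart. The p-values therefore measure the spread between samples, taken as independent.

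Long-chain fatty acids are released from circulating triglyceride by lipoprotein lipase, enter the cell with the help of CD36 and fatty acid transport proteins, and are bound by FABP3 and activated to acyl-CoA. Carnitine palmitoyltransferase 1 and 2 and a carnitine carrier move them into mitochondria, where β-oxidation shortens them step by step and passes electrons to the respiratory chain. After birth the heart is known to shift from glucose and lactate toward fatty acids as its main fuel, and the receptors PPARα, ERRα and ERRγ with the coactivator PGC-1α are the best known regulators of these genes.

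The libraries held 46091271 to 67984404 counts in whole heart and 54615898 to 76758831 in fibroblasts. Levels are given as CPM, the counts of a gene relative to the whole library after TMM scaling within a tissue, and they are not corrected for gene length unless stated. Transcripts encoded by mitochondrial DNA took on average 12.2% of heart counts at day 1 and 31.8% at 1 year, but 1.76% to 8.13% in fibroblasts. The sorted cells carried the markers of their label, and 7 fibroblast markers summed to 33910 to 74030 CPM in fibroblasts against 1393 to 3242 CPM in whole heart. They also held markers of other cells. Endothelial markers at 14 weeks summed to 1437 to 1754 CPM in fibroblasts and 785.2 to 807 CPM in heart, with overlap at the other ages. Macrophage markers were higher in fibroblasts than in heart at day 1, overlapped at 4 weeks and were lower from 14 weeks on. Xist and 4 genes of the Y chromosome differed with age in both tissues. At day 1 and 4 weeks every group held both signals, with Xist at 6.48 CPM or more and the summed Y genes at 1.82 CPM or more. At 14 weeks and 1 year Xist did not exceed 0.57 CPM and the summed Y genes were at 101 CPM or more, whereas at 1.5 years Xist was at 34.8 CPM or more and the Y genes did not exceed 0.445 CPM. The labels give no sex. Age and sex cannot be told apart in the comparisons of 1.5 years with 14 weeks, and the sex make-up also differed between 14 weeks and 4 weeks. Adjusted p values throughout are from edgeR's quasi-likelihood F test with Benjamini-Hochberg adjustment over all genes tested, and a gene was called when this was under 0.05.

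In whole heart the 38 genes together took 1.4% ± 0.135 of all counts on postnatal day 1 (mean ± SD, n = 3 for each age). The share was 1.67% ± 0.0693 in the 4-week hearts and 1.99% ± 0.0777 in those of 14 weeks. The oldest hearts were close to the latter, with 1.89% ± 0.0404 in the 1-year group and 2% ± 0.172 in the 1.5-year group. With the transcripts of mitochondrial DNA left out of the total, the shares in order of age were 1.6%, 2.1%, 2.88%, 2.76% and 2.54%. In fibroblasts the share was far smaller, from 0.211% at 4 weeks to 0.273% at 14 weeks. Per kilobase of transcript at 14 weeks, the highest level in the heart was that of Fabp3, the cytosolic fatty acid binding protein of muscle, at 2307 ± 283 CPM per kb. It was followed by Lpl, lipoprotein lipase, at 1381 ± 159 and by Ech1, which isomerises dienoyl-CoA from unsaturated fatty acids, at 1345 ± 34 CPM per kb, a pair that did not differ beyond their spread. Acadm, medium-chain acyl-CoA dehydrogenase, came next at 671.2 ± 18.1 CPM per kb, and Cpt1b, the muscle form of the outer carnitine palmitoyltransferase, was the lowest at 1.564 CPM per kb. At 14 weeks the fibroblasts ranked differently per kilobase, with Lpl at 260.4, Cd36 at 145.9, Ech1 at 54.5 and Cpt1a at 39.82 CPM per kb. All 38 genes passed the filter on low counts in both tissues. Among the 5 ages, 32 of them differed in whole heart, where 34.3% of all 17995 genes tested did, and 8 differed in fibroblasts, where 19.9% of 18759 genes did. The heart genes with no call were Acadl, Cpt1b, Eci2, Ehhadh, Esrrg and Mlycd.

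**Figure D1:**
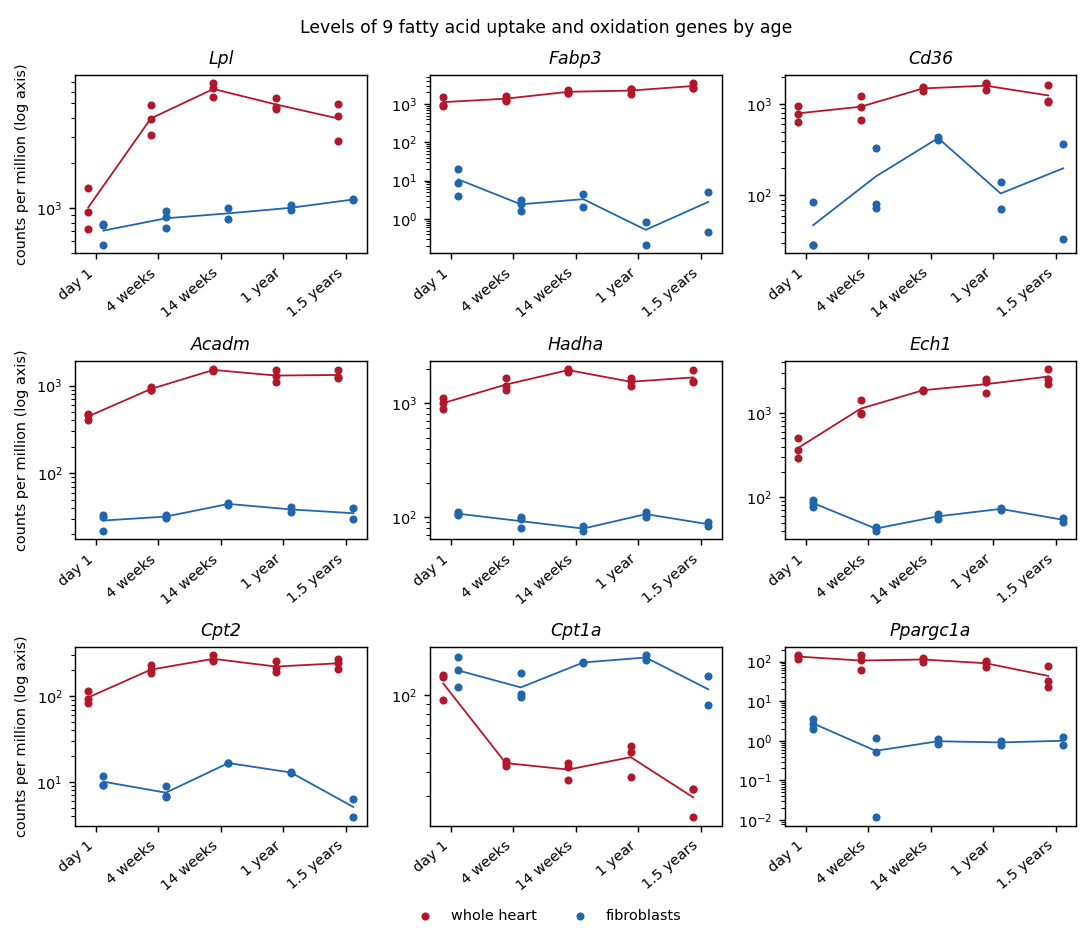
Levels of 9 genes of fatty acid uptake and oxidation at the 5 ages, as CPM scaled over both tissues on log axes. Points are samples and lines join group means (red, whole heart, n = 3, blue, fibroblasts, n = 3 or 2). Lpl, Acadm, Hadha, Ech1 and Cpt2 are higher in the heart at 4 weeks than at day 1, and Cpt1a is the gene whose fibroblast samples lie above the heart from 4 weeks on.

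The first question was how the pathway differed between the newborn and the juvenile heart. Between day 1 and 4 weeks, 22 of the 38 genes changed in whole heart, where 18.2% of all genes did. Of these, 18 rose (12.1% of all genes rose) and 4 fell (6.1% fell). The log2 fold change had its median at 0.46 over the 38 genes and at −0.09 over all genes. The rise took in enzymes of β-oxidation: 2 of 4 acyl-CoA dehydrogenases, 4 of 5 genes of the later steps and 3 of 5 auxiliary enzymes. All 3 electron transfer genes (Etfa, Etfb and Etfdh) rose as well, and none in these groups fell. The 4 genes that fell were Acot1, Acot2, Cpt1a and Ucp3.

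In the uptake group, Lpl (chromosome 8, 68880491 to 68907448, plus strand, mm10) stood at 1214, 654 and 852 CPM in the day 1 hearts and at 4461, 2800 and 3575 CPM at 4 weeks. Every 4-week heart lay above every day 1 heart, and the log2 fold change was 1.99 (SE 0.24, adjusted p = 1.76e-05). Acsl1, the main long-chain acyl-CoA synthetase of the heart, rose by 0.59 on the log2 scale. Fabp3 stood at 834, 812 and 1373 CPM at day 1 and at 1115, 1505 and 1139 CPM at 4 weeks, ranges that overlapped (log2 fold change 0.32, SE 0.21, adjusted p = 0.333). Cd36, the membrane fatty acid translocase, was not called either (0.26, SE 0.21, adjusted p = 0.451).

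The carnitine shuttle split. Cpt2, the inner-membrane palmitoyltransferase, was at 73.9, 83.6 and 104 CPM at day 1 and at 183, 208 and 168 CPM at 4 weeks, with no overlap (log2 fold change 1.10, SE 0.16, adjusted p = 0.000141). Cpt1a (chromosome 19, 3322334 to 3385733, plus strand), the form of the outer-membrane enzyme that predominates in liver and in the fetal heart, went the other way, from 113, 111 and 85.3 CPM to 39.2, 41.3 and 40.4 CPM. The lowest day 1 heart had more than any 4-week heart, and the log2 fold change was −1.35 (SE 0.19, adjusted p = 6.67e-05). Cpt1b was at 5.75, 5.55 and 7.73 CPM at day 1 and at 3.27, 3.68 and 3.86 CPM at 4 weeks, and the difference was not called (−0.82, SE 0.43, adjusted p = 0.207). Cpt1a held 78.3% to 95.2% of the counts of the pair in every heart sample at every age. In the GENCODE M21 annotation 81.4% of the exon length of Cpt1b is shared with another gene on the same strand, Gm44502, and gene counting in STAR leaves out reads in such a stretch where the annotation used holds both genes. Its level is therefore uncertain.

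The acyl-CoA dehydrogenases open each turn of the cycle, each for its own chain length. Acadm was at 408, 364 and 426 CPM at day 1 and at 880.2, 814 and 804 CPM at 4 weeks, again without overlap (log2 fold change 1.06, SE 0.14, adjusted p = 3.3e-05). Acadvl, the very-long-chain dehydrogenase, rose by 1.17 (SE 0.17, adjusted p = 0.000142). Its exons overlap those of Dvl2 on the opposite strand over 42.9% of their length. Acadl, the long-chain enzyme, was at 798, 612 and 704 CPM before and at 736, 804 and 720.0 CPM after, with no call.

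Hadha and Hadhb encode the α and β subunits of the mitochondrial trifunctional protein, which carries out the later steps for long chains. Hadhb was at 141, 149 and 200 CPM at day 1 and at 382, 462 and 358 CPM at 4 weeks (log2 fold change 1.29, SE 0.15, adjusted p = 1.18e-05). Hadha rose from 887, 804 and 1004 CPM to 1286, 1511 and 1175 CPM (0.56, SE 0.14, adjusted p = 0.00979). Neither gene overlapped between the ages. Echs1, short-chain enoyl-CoA hydratase, rose by 0.93 and Hadh, the medium- and short-chain hydroxyacyl-CoA dehydrogenase, by 0.68.

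Ech1 (chromosome 7, 28825217 to 28832247, plus strand) had the second largest rise of the set: 321, 261 and 457 CPM at day 1 against 882, 1302 and 902 CPM at 4 weeks (log2 fold change 1.57, SE 0.22, adjusted p = 7.3e-05). Decr1 and Eci1, which also prepare unsaturated acyl-CoA for the cycle, rose by 0.87 and 0.76, while the peroxisomal Ehhadh and Eci2 had no call. Among the electron transfer genes, Etfb rose by 1.12, Etfa by 0.76 and Etfdh by 0.51 (SE 0.14, adjusted p = 0.0143). For Etfb, 58.2% of the exon length is shared with Gm45233.

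Of the regulators, Esrra, which encodes ERRα, rose from 107, 108 and 115 CPM to 164, 231 and 186 CPM (log2 fold change 0.81, SE 0.17, adjusted p = 0.00313), with no overlap. Ppara rose by 1.07 (SE 0.34, adjusted p = 0.0402) from 7.61, 10.1 and 15.7 CPM to 27.2, 22.4 and 20.3 CPM. Ppargc1a, which encodes PGC-1α, was not called and its ranges overlapped, at 127, 107 and 125 CPM against 134, 54.0 and 102 CPM.

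The receptors PPARα, ERRα and ERRγ bind copies of the hexamer AGGTCA, so the 250 bases before the start site of each gene were read for it on both strands. RefSeq promoters were matched for 32 of the 38 genes (38 promoters). The hexamer was in 6 of these 38 promoters and in 14% of all 32851 mouse promoters. The longer ERR element TNAAGGTCA was in none of them (1.14% of all) and the direct repeat AGGTCANAGGTCA in none (0.0335% of all), both of which overlap the hexamer. The 6 genes were Acadm, Acadvl, Cd36, Cpt1a, Echs1 and Ucp3. Shown are the windows of 3 enzymes that rose in the heart after day 1 and of Cpt1a, which fell, from RefSeq on GRCm38.p6, each 5′ to 3′ on the gene's strand and ending at the base before the start site. Capitals mark the hexamer, or TGACCT where it lies on the opposite strand. A match is a description of these letters and not a bound site.
Acadm, chr3:153944644-153944893, minus strand: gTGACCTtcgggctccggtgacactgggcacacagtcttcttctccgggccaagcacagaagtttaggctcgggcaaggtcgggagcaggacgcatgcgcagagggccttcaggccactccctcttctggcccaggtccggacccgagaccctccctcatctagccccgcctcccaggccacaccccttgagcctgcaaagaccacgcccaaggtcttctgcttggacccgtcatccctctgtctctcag
Acadvl, chr11:70015429-70015678, minus strand: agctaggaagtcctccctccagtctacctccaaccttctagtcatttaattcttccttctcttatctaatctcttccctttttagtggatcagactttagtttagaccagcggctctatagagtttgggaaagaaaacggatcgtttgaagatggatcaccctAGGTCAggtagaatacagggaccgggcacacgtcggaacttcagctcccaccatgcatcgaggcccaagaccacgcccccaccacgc
Echs1, chr7:140116422-140116671, minus strand: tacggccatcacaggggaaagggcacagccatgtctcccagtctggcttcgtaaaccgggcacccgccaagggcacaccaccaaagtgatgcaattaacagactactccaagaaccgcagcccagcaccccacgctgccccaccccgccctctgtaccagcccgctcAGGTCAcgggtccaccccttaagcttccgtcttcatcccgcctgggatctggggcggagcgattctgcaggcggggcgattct
Cpt1a, chr19:3323051-3323300, plus strand: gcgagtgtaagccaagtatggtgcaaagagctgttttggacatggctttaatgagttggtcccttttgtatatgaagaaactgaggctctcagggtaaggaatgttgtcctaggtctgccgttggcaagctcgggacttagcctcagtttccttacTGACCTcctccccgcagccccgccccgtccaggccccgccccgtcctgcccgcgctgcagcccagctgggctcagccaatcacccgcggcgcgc
The hexamer began 249 bases before the start in Acadm, 87 in Acadvl, 83 in Echs1 and 94 in Cpt1a, on the opposite strand in Acadm and Cpt1a.

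The last group held 3 of the 4 falls. Acot1, a cytosolic acyl-CoA thioesterase, went from 75.1, 76.0 and 63.6 CPM to 8.5, 16.5 and 9.0 CPM, the largest change of the set (log2 fold change −2.66, SE 0.36, adjusted p = 5.43e-05). Its mitochondrial neighbour Acot2 fell by 0.98 (SE 0.20, adjusted p = 0.00201), from 106, 112 and 115 CPM to 55.7, 64.95 and 48.7 CPM. The pair lie side by side on chromosome 12 and are near-identical copies, and reads that map to both are not counted by STAR's gene counts, so their levels are uncertain. Ucp3, a mitochondrial uncoupling protein, fell by 0.70 (SE 0.22, adjusted p = 0.0349). Acot13, a thioesterase of mitochondria, rose by 0.66 (SE 0.19, adjusted p = 0.0232).

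Markers of cardiomyocytes moved with these genes: 6 of 8 rose, their sum was 37690 to 45300 CPM at day 1 and 73300 to 90890 CPM at 4 weeks, and no marker was at 0. Nuclear genes of mitochondria outside fatty acid oxidation did likewise, with 7 of 8 rising and sums of 8547 to 10750 against 14720 to 19730 CPM. Markers of other cells rose at this step too. All 7 macrophage markers rose, with sums of 62.43 to 84.26 CPM at day 1 and 389 to 494.2 CPM at 4 weeks. Of 9 endothelial markers 4 rose (603.6 to 848.7 against 1130 to 1356 CPM), and of 7 fibroblast markers 3 rose and 2 fell (1393 to 1662 against 2310 to 3242 CPM). The part of these cells in the result was not tested, and in whole heart fewer cells of a type and less RNA per cell cannot be told apart. The counts also depended on scaling. With library size alone in place of TMM, the median over all genes went to −0.60 and that over the 38 genes to −0.04, and 6 rose and 10 fell. Called under each of 10 alternatives of scaling, filter, model and tool, and without each of the 6 hearts in turn, were Acadm, Acadvl, Cpt2, Ech1, Hadhb and Lpl upward, and Acot1, Acot2 and Cpt1a downward.

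Several smaller changes of this step rested on single libraries. Without replicate 2 of day 1 the adjusted p was 0.134 for Acot13, 0.058 for Eci1, 0.0649 for Etfdh, 0.0694 for Hadha, 0.12 for Ppara and 0.0736 for Ucp3. Without replicate 1 of day 1 it was 0.0701 for Eci1 and 0.15 for Ppara, and without replicate 3 of day 1 it was 0.126 for Ucp3. Of the 4-week hearts, leaving out replicate 1 gave 0.0643 for Etfdh and 0.117 for Ppara. Leaving out replicate 2 gave 0.135 for Acot13, 0.0911 for Eci1, 0.0507 for Hadha, 0.0618 for Ppara and 0.0693 for Ucp3, and leaving out replicate 3 gave 0.0513 for Acot13, 0.058 for Ppara and 0.134 for Ucp3.

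**Figure D2:**
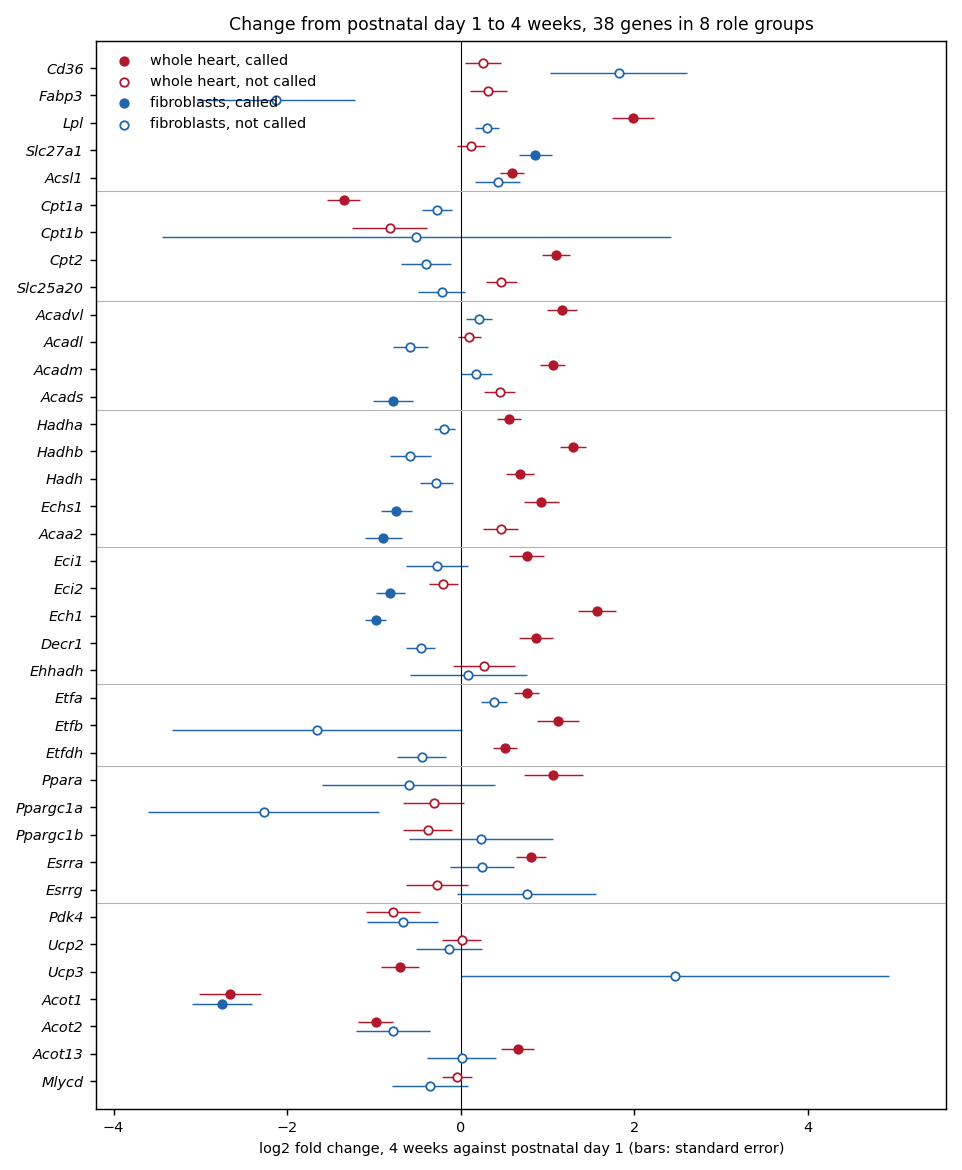
Log2 fold change from postnatal day 1 to 4 weeks for each of the 38 genes, with SE, in whole heart and in fibroblasts; filled points passed an adjusted p of 0.05. In the heart 18 filled points lie right of 0 and 4 left of it, whereas in fibroblasts 1 lies right (Slc27a1) and 6 lie left.

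From 4 to 14 weeks few single genes changed in the heart. Of the 38 genes 4 were called, where 1.61% of all genes were, with Acadm, Hadhb and Etfdh rising (0.756% of all genes) and Ucp2 falling (0.85%). The median log2 fold change was 0.42 for the 38 genes and 0 for all genes, and 24 of the 38 had an unadjusted p under 0.05, as had 13.2% of all genes. The 9 endothelial markers summed to 785.2 to 807 CPM at 14 weeks against 1130 to 1356 CPM at 4 weeks. Of these markers, 1 fell. Other sums did not overlap either. Macrophage markers were at 312.3 to 350.8 against 389 to 494.2 CPM. Smooth muscle and pericyte markers were at 895.9 to 941.1 against 1138 to 1580 CPM, and red cell markers at 295.8 to 376.9 against 439.1 to 1482 CPM. Transcripts of mitochondrial DNA took 27.7% to 34.5% of counts against 14.9% to 26.7%. Cardiomyocyte and fibroblast markers overlapped. The part of these in the result was not tested. Acadm stood at 1338, 1372 and 1412 CPM at 14 weeks, above each of the 4-week values given above (log2 fold change 0.72, SE 0.14, adjusted p = 0.0131). Hadhb rose by 0.66 (SE 0.15, adjusted p = 0.0349) to 584, 669.6 and 646 CPM. Etfdh, the membrane oxidoreductase that hands electrons from the flavoprotein to ubiquinone, went from 439, 388 and 349.6 CPM to 555, 673 and 632 CPM (0.66, SE 0.14, adjusted p = 0.0205). Ucp2, an inner-membrane anion carrier, went from 207, 139 and 135 CPM to 66.0, 40.5 and 65.3 CPM (−1.48, SE 0.24, adjusted p = 0.00377). No 14-week heart overlapped the 4-week hearts for any of these 4 genes. Lpl was at 5001, 6302 and 5747 CPM at 14 weeks, all above the 4-week hearts, but the change of 0.65 (SE 0.23) had an adjusted p of 0.215. The 4-week hearts serve in this step and in the one before it.

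The Ucp2 call was kept when any single heart was left out, and the others were not. Acadm had an adjusted p of 0.0754 without replicate 3 of 4 weeks and of 0.0502, 0.0633 and 0.0716 without replicates 1, 2 and 3 of 14 weeks. Etfdh had 0.13 without replicate 3 of 4 weeks and 0.126 and 0.101 without replicates 2 and 3 of 14 weeks. Hadhb had 0.0915 and 0.185 without replicates 1 and 3 of 4 weeks and 0.0825, 0.162 and 0.154 without replicates 1, 2 and 3 of 14 weeks. With library size alone 1 gene rose and 1 fell, and with an offset for transcript length 8 rose and 1 fell.

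Between 14 weeks and 1 year 1 of the 38 genes was called, where 0.972% of all genes were (0.389% higher and 0.583% lower). Acsl1 went from 877, 1021 and 932 CPM to 594, 619 and 622 CPM, without overlap (log2 fold change −0.63, SE 0.14, adjusted p = 0.0408). Leaving out any 1 of the 6 hearts ended this call, with adjusted p of 0.126, 0.158 and 0.187 without replicates 1, 2 and 3 of 14 weeks and of 0.17, 0.157 and 0.0858 without replicates 1, 2 and 3 of 1 year. The median was −0.09 over the 38 genes and 0.05 over all genes. Some marker sums did not overlap between these hearts. Macrophage markers summed to 312.3 to 350.8 CPM at 14 weeks and 500.4 to 616.6 CPM at 1 year. Red cell markers were at 295.8 to 376.9 against 379.2 to 705.5 CPM. Endothelial markers fell from 785.2 to 807 CPM to 656.1 to 755.7 CPM. Nuclear mitochondrial genes outside the pathway were at 16280 to 17180 against 13670 to 15430 CPM. Cardiomyocyte markers overlapped. The part of these was not tested.

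At 1.5 years 8 genes differed from 14 weeks, where 12.8% of all genes did. Higher were 2 (4.91% of all genes), Etfb and Acot13. Lower were 6 (7.86% of all genes): Ppargc1a, Ppara, Esrrg, Pdk4, Acsl1 and Etfdh, of which the first 3 encode regulators of the pathway. The enzymes of the cycle itself, from Acadvl to Acaa2 and Ech1, had no call. This comparison uses the same 14-week hearts as the one with 1 year. Other measures moved between the same samples without overlap. Macrophage markers summed to 312.3 to 350.8 CPM at 14 weeks and 506.1 to 704.2 CPM at 1.5 years (3 of 7 rose), and red cell markers to 295.8 to 376.9 against 688.7 to 1645 CPM (4 of 5 rose). Fibroblast markers summed to 2033 to 2547 against 2761 to 3194 CPM, and smooth muscle and pericyte markers to 895.9 to 941.1 against 603 to 863.2 CPM. Transcripts of mitochondrial DNA took 27.7% to 34.5% of counts at 14 weeks and 18.5% to 26.5% at 1.5 years. Of 8 cardiomyocyte markers 3 rose and 2 fell. The part of these in the result was not tested.

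Ppargc1a was at 89.5, 106 and 112 CPM at 14 weeks and at 66.4, 19.9 and 28.0 CPM at 1.5 years (log2 fold change −1.43, SE 0.36, adjusted p = 0.0161). Ppara went from 37.9, 31.2 and 39.6 CPM to 17.5, 19.0 and 6.04 CPM (−1.35, SE 0.35, adjusted p = 0.0173). Esrrg, which encodes ERRγ, went from 48.6, 42.2 and 43.1 CPM to 30.5, 11.9 and 11.4 CPM (−1.32, SE 0.37, adjusted p = 0.0268). The groups did not overlap for any of these 3 genes, and for Ppargc1a and Esrrg the first 1.5-year heart stood well above the others. Esrra, by contrast, was at 178, 197 and 223 CPM against 162, 210 and 269.7 CPM, with overlap and no call.

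Pdk4, the kinase that restrains pyruvate dehydrogenase, fell from 276, 268 and 441 CPM to 172, 160.1 and 94.7 CPM (log2 fold change −1.21, SE 0.32, adjusted p = 0.0193). Acsl1 fell to 569.6, 535 and 409 CPM (−0.90, SE 0.14, adjusted p = 0.00107), and Etfdh to 438, 429 and 365 CPM (−0.59, SE 0.14, adjusted p = 0.00934). Every 1.5-year heart lay below every 14-week heart for Pdk4, Acsl1 and Etfdh. Etfb rose from 22.4, 25.0 and 24.6 CPM to 32.3, 38.6 and 66.3 CPM (0.93, SE 0.24, adjusted p = 0.0189) and Acot13 from 268, 307 and 241 CPM to 389, 457 and 518 CPM (0.74, SE 0.19, adjusted p = 0.0189). The third 1.5-year heart was the highest for both rising genes and the lowest for Ppara, Pdk4, Acsl1 and Etfdh.

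The direction at 1.5 years ran with transcript length. The 2 genes that rose have transcripts of 721 and 893 bases, the 6 that fell have 2377 to 6464 bases, and the 30 without a call have 823 to 4317 bases. With an offset for transcript length in the fit, 5 genes were called: Ppara (−1.20, adjusted p = 0.0486), Etfdh (−0.65, adjusted p = 0.00922), Acsl1 (−0.64, adjusted p = 0.00441), Acadl (−0.43, adjusted p = 0.0266) and Ucp2 (0.89, adjusted p = 0.0399). Ppargc1a then stood at −0.85 (adjusted p = 0.0906), Esrrg at −0.86 (0.109), Pdk4 at −1.03 (0.059), Etfb at 0.24 (0.483) and Acot13 at 0.00 (adjusted p = 1). Acsl1 and Etfdh are the genes that were called in both fits and without each heart in turn. The part of transcript length in the other calls was not tested further.

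**Figure D3:**
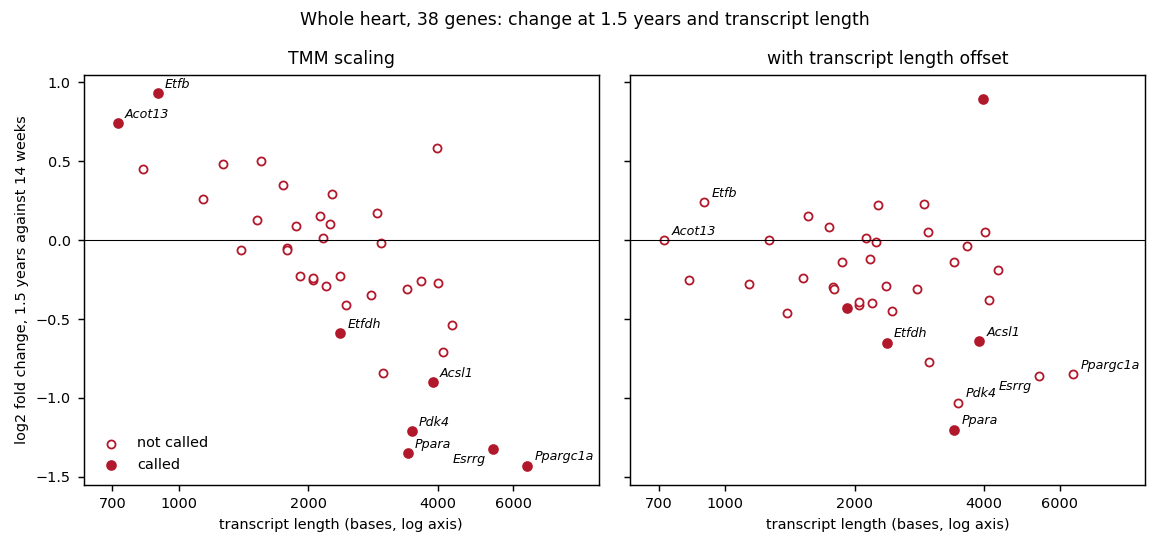
Log2 fold change at 1.5 years against 14 weeks in whole heart plotted against transcript length (log axis) for the 38 genes, under TMM scaling and with a length offset added. Under TMM scaling Acot13 and Etfb, with transcripts of 721 and 893 bases, lie above 0 and the longest called ones, Ppargc1a and Esrrg among them, lie below −1, whereas with the offset Acot13 moves to 0.00.

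The other calls at 1.5 years depended on single hearts. Without replicate 3 of 14 weeks the adjusted p was 0.0571 for Ppargc1a, 0.0643 for Ppara, 0.0675 for Esrrg, 0.107 for Pdk4, 0.0648 for Etfb and 0.0949 for Acot13. Without replicate 1 of 14 weeks it was 0.0551 for Ppara, 0.0814 for Esrrg, 0.0774 for Etfb and 0.0694 for Acot13, and without replicate 2 of 14 weeks it was 0.0579 for Esrrg and 0.0538 for Etfb. Without replicate 3 of 1.5 years it was 0.0733 for Ppargc1a, 0.112 for Esrrg, 0.0867 for Pdk4, 0.123 for Etfb and 0.0784 for Acot13. Without replicate 2 of 1.5 years it was 0.0598 for Ppargc1a and 0.103 for Esrrg.

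In cardiac fibroblasts the step from day 1 to 4 weeks went mostly downward for these genes. Of the 38, 7 were called, where 15.5% of all genes were: 6 fell (6.2% of all genes fell) and 1 rose (9.28% rose). The median change was −0.32 on the log2 scale for the 38 genes and 0 for all genes. The falls were Acot1, Ech1, Acaa2, Eci2, Acads and Echs1, which are thioesterase and cycle or auxiliary enzymes, and the rise was Slc27a1, the fatty acid transport protein FATP1. Acot1 went from 21.99, 24.3 and 41.8 CPM to 5.46, 3.32 and 4.33 CPM (−2.75, SE 0.35, adjusted p = 0.00014), a change of the same direction as in the heart. Ech1 went from 107, 97.7 and 87.4 CPM to 49.6, 51.1 and 47.0 CPM (−0.98, SE 0.12, adjusted p = 0.00013). Slc27a1 went from 17.7, 17.2 and 14.9 CPM to 35.4, 26.9 and 27.9 CPM (0.86, SE 0.19, adjusted p = 0.00716). The ages did not overlap for any of these 3 genes.

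Acaa2, the last enzyme of the cycle, fell by 0.89 (adjusted p = 0.0121), Eci2 by 0.81 (0.0063), Acads, short-chain acyl-CoA dehydrogenase, by 0.78 (0.0355) and Echs1 by 0.74 (0.0128). The Acaa2 call was lost without replicate 3 of day 1 (adjusted p = 0.0534). That of Acads was lost without replicate 1 or 2 of day 1 (0.0517 and 0.106) and without replicate 1, 2 or 3 of 4 weeks (0.0586, 0.0568 and 0.107). Cardiomyocyte markers summed to 717.8 to 782.3 CPM in the day 1 fibroblasts and to 78.29 to 221.5 CPM at 4 weeks, with all 8 above 0 at both ages. Macrophage markers summed to 118.6 to 243.5 CPM at day 1, to 322.8 to 544.1 CPM at 4 weeks and to no more than 106.1 CPM later. Nuclear mitochondrial genes outside the pathway summed to 1105 to 1256 CPM at day 1 and to 830.9 to 928.5 CPM at 4 weeks. Transcripts of mitochondrial DNA took 6.15% to 9.18% of counts against 1.88% to 3.73%. Smooth muscle and pericyte markers summed to 246.6 to 373.4 against 90.14 to 177.4 CPM, while endothelial sums overlapped. Fibroblast markers themselves summed to 33910 to 42100 CPM at day 1 and to 57940 to 70350 CPM at 4 weeks. The part of these and of the other cells in the falls was not tested.

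Later steps in fibroblasts had few calls. At 14 weeks against 4 weeks 2 of 38 genes were called, where 3.87% of all genes were, both higher (1.79% of all genes). Pdk4 stood at 7.47, 13.5 and 12.1 CPM at 4 weeks and at 47.7 and 56.8 CPM at 14 weeks (log2 fold change 2.25, SE 0.45, adjusted p = 0.0177), and Hadhb at 11.6, 16.6 and 20.04 CPM against 43.3 and 42.7 CPM (1.42, SE 0.26, adjusted p = 0.0115). Neither overlapped. Smooth muscle and pericyte markers summed to 90.14 to 177.4 CPM at 4 weeks and 368.8 to 474.6 CPM at 14 weeks (1 of 6 rose), and macrophage markers to 322.8 to 544.1 against 37.96 to 56.52 CPM (6 of 7 fell), and their part in the result was not tested. Without replicate 4 of 14 weeks the adjusted p was 0.0815 for Pdk4 and 0.104 for Hadhb, without replicate 6 it was 0.129 and 0.102, and without replicate 1 of 4 weeks Pdk4 had 0.0716.

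At 1 year against 14 weeks edgeR's test called 0 of 38 genes (1.78% of all genes were called, 1.31% higher and 0.474% lower), with 5 of 38 at an unadjusted p under 0.05, as were 12.3% of all genes. DESeq2 called 0 as well. At 1.5 years against 14 weeks, 1 gene was called, as lower, against 2.72% of all genes called and 0.816% called lower. Cpt2 was at 19.7 and 19.1 CPM at 14 weeks and at 7.17 and 4.44 CPM at 1.5 years (log2 fold change −1.74, SE 0.36, adjusted p = 0.0257). The call was lost without replicate 4 or 6 of 14 weeks (adjusted p = 0.214 and 0.169) and without replicate 4 or 5 of 1.5 years (0.0668 and 0.212). Both comparisons use the same pair of 14-week fibroblast samples. Several marker sums did not overlap between 14 weeks and 1.5 years. Macrophage markers were at 37.96 to 56.52 against 88.27 to 106.1 CPM, and smooth muscle and pericyte markers at 368.8 to 474.6 against 154.6 to 317.2 CPM. Nuclear mitochondrial genes outside the pathway were at 797.2 to 803.2 against 925 to 936.5 CPM. Fibroblast and red cell markers were higher, and endothelial and cardiomyocyte sums overlapped. The part of these was not tested.

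Cd36 varied widely among the fibroblast samples without a call at any step. It stood at 96.0, 32.7 and 32.5 CPM at day 1, at 81.9, 92.4 and 394 CPM at 4 weeks, at 519 and 472 CPM at 14 weeks, at 77.9 and 157 CPM at 1 year and at 37.2 and 416 CPM at 1.5 years. At 1.5 years the pair of samples alone spanned most of the range seen over all ages. The summed level of 9 endothelial markers moved with it: 665.3, 445 and 468.8 CPM at day 1, 761.6, 633.4 and 2137 at 4 weeks, 1754 and 1437 at 14 weeks, 641.4 and 811 at 1 year, and 436.8 and 1460 CPM at 1.5 years. The 4 samples highest in Cd36 were the 4 highest in these markers, all of which were above 0 in every sample. The part of endothelial RNA in the Cd36 level was not tested.

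**Figure D4:**
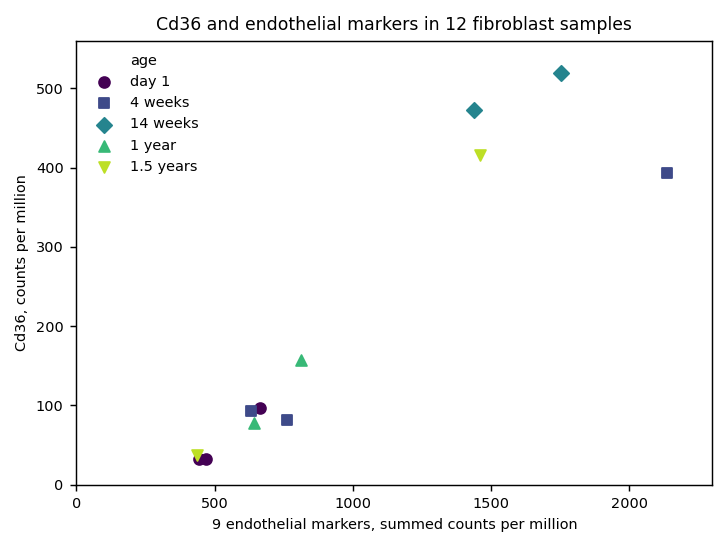
Cd36 level against the summed level of 9 endothelial markers in the 12 fibroblast samples, in CPM, each point a sample marked by its age. The 4 samples with Cd36 at 394 CPM or more are the 4 with endothelial sums of 1437 CPM or more.

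Set side by side at the same age, fibroblasts held less of nearly every gene than whole heart. In these comparisons and in the interaction below, cell type and preparation (sorted, digested cells against tissue) cannot be told apart. Lower in fibroblasts were 35 of 38 genes at day 1, 36 in each of the 4-week, 14-week and 1-year comparisons, and 37 in the oldest mice. Over all genes 32.3%, 36.1%, 34.8%, 32.4% and 38.9% differed at these ages, with 18.7%, 18.6%, 17.7%, 15.7% and 17.9% lower and 13.6%, 17.5%, 17.1%, 16.7% and 21% higher. The median log2 difference over the 38 genes was −3.21, −4.07, −4.41, −3.90 and −4.31, while over all genes it lay between −0.17 and 0.04. In linear terms the median gene of the set stood in fibroblasts at 10.8% of its heart level at day 1 and at 5.96%, 4.71%, 6.7% and 5.05% at the later ages. Nuclear mitochondrial genes outside the pathway had like medians, of 11.4%, 5.34%, 4.88%, 7.42% and 5.42%.

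Cardiomyocyte markers stood lower in fibroblasts than most genes of the set. The median of 8 such markers was 1.28% of the heart level at day 1 and 0.152%, 0.123%, 0.0349% and 0.0841% later, with highest values of 1.9%, 0.211%, 0.261%, 0.0544% and 0.284%. Above the highest cardiomyocyte marker lay 36, 37, 36, 37 and 35 of the 38 genes. The share of all genes above that marker was not counted, so this count does not set the 38 genes apart from others. Fabp3 lay below the highest cardiomyocyte marker at every age, at 0.963% of the heart level at day 1 and at 0.175%, 0.158%, 0.0232% and 0.0944% later. Its log2 difference ran from −6.70 at day 1 to −12.08 at 1 year. Ucp3 also lay below it at day 1, 14 weeks and 1.5 years, and Cpt1b at 1.5 years.

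**Figure D5:**
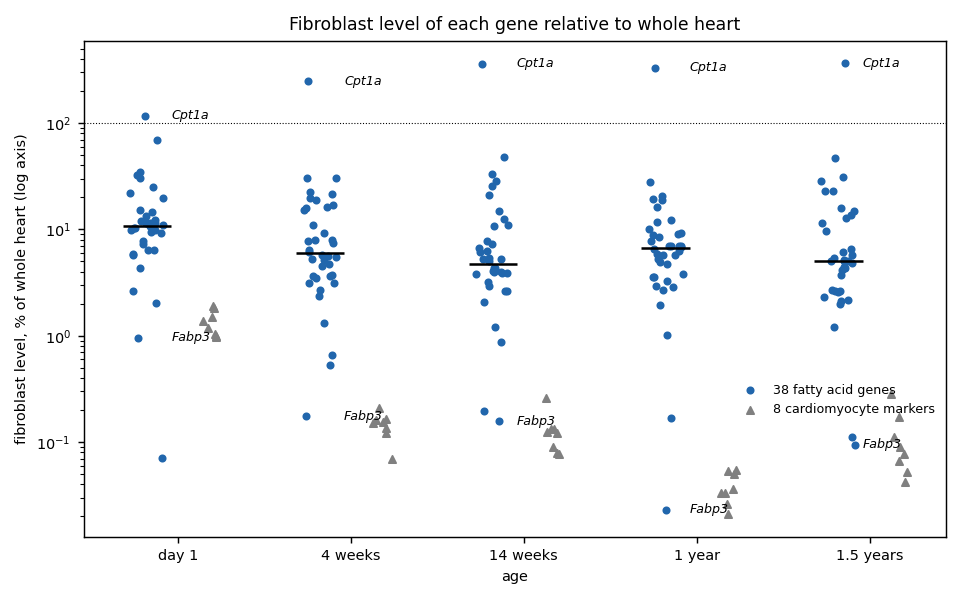
Fibroblast level as a percent of the whole heart level (log axis) at each age for the 38 genes and for 8 cardiomyocyte markers, each point a gene and black lines medians. The set's medians run between 4.71% and 10.8%, those of the cardiomyocyte markers between 0.0349% and 1.28%, Cpt1a lies above 100% at each age, and Cpt1b at 1.5 years, at 0 in fibroblasts, is not drawn.

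Cpt1a was the exception. With both tissues scaled together it stood at 158, 109.9 and 135 CPM in day 1 fibroblasts and at 127, 123 and 94.4 CPM in day 1 hearts, which overlapped (log2 difference 0.22, not called). At 4 weeks fibroblasts had 101, 129.7 and 98.1 CPM and hearts 43.0, 45.4 and 44.5 CPM (1.31, SE 0.19, adjusted p = 4.6e-06). At 14 weeks fibroblasts had 147 and 149 CPM and hearts 42.2, 36.3 and 44.4 CPM (1.85, SE 0.21, adjusted p = 9.99e-08). From 4 weeks on every fibroblast sample lay above every heart of its age, with log2 differences of 1.72 at 1 year (SE 0.21, adjusted p = 2.97e-07) and 1.87 at 1.5 years (SE 0.21, adjusted p = 7.93e-08). Cpt1a was the one gene of the set called higher in fibroblasts at any age.

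Its muscle counterpart was barely counted there. Cpt1b had 0 counts in 7 of the 12 fibroblast libraries and 33 to 220 in the others, against 170 to 720 counts in every heart. At 1.5 years both fibroblast libraries were at 0, which against a floor of 3 counts per library (0.0421 CPM) and a heart mean of 5.836 CPM puts the fibroblasts at least 139-fold lower. This floor covers counting error only. Cpt1b was not called at the other ages.

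Lpl in fibroblasts stood at 69.8% of the heart at day 1 (not called, adjusted p = 0.0771) and at 21.5%, 14.8%, 20.4% and 28.8% later. On the joint scale it was at 785, 566 and 769 CPM in day 1 fibroblasts and at 873, 958 and 732 CPM at 4 weeks. The hearts went from 1365, 728 and 944 CPM to 4885, 3081 and 3935 CPM over the same time. At 4 weeks no heart sample overlapped the fibroblasts, at day 1 they did.

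A few of the lower calls in fibroblasts rested on single libraries. For Cd36 at 14 weeks the adjusted p of 0.047 became 0.173 and 0.198 without fibroblast replicates 4 and 6 and 0.0816, 0.0897 and 0.0951 without heart replicates 1, 2 and 3, and for Cd36 at 1.5 years it was 0.062 without fibroblast replicate 4. For Ucp2 at 14 weeks it was 0.0608 and 0.24 without fibroblast replicates 4 and 6 and 0.122 and 0.125 without heart replicates 1 and 3. For Acot1 at 1.5 years it was 0.126 and 0.136 without fibroblast replicates 4 and 5 and 0.133 and 0.0893 without heart replicates 1 and 2, and for Cpt1b at 1.5 years it was 0.0743 and 0.0762 without fibroblast replicates 4 and 5. The calls for Ehhadh, the peroxisomal bifunctional enzyme, were lost at day 1 without fibroblast replicate 3 (0.0785) or heart replicate 1 (0.103), at 1 year without fibroblast replicate 5 (0.199), and at 1.5 years without fibroblast replicate 5 (0.261) or heart replicate 2 (0.0868). At 14 weeks leaving out fibroblast replicate 4 or 6 gave Ehhadh 0.09 and 0.199, and leaving out heart replicate 1, 2 or 3 gave 0.0548, 0.0591 and 0.0783.

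Whether the postnatal change itself differed between the tissues was tested with an interaction term, as the log2 change from day 1 to 4 weeks in fibroblasts minus that in whole heart. It was called for 13 of 38 genes, where 7.14% of all genes were, with 12 negative (3.96% of all genes) and 1 positive (3.18%), and its median was −0.69 over the 38 genes and 0.17 over all genes. The negative genes came from 5 of the 8 role groups: Lpl in uptake, Cpt2 in the shuttle, 3 of 4 acyl-CoA dehydrogenases, all 5 genes of the later steps, and the auxiliary Ech1 and Decr1. None was an electron transfer gene, a nuclear receptor or coactivator, or one of the last group. Ech1, which rose in the heart and fell in fibroblasts, had the largest difference (−2.56, SE 0.28, adjusted p = 2.8e-06), followed by Hadhb (−1.89, SE 0.26, adjusted p = 4.15e-05) and Lpl (−1.70, SE 0.31, adjusted p = 0.00112). Cpt1a, which fell in the heart and was not called in fibroblasts, had the positive one (1.08, SE 0.26, adjusted p = 0.0118). The summed level of nuclear mitochondrial genes outside the pathway also rose in the heart and fell in fibroblasts over this step. The part of this in the interaction was not tested. With library size alone 2 of the 38 genes were positive and 7 negative. Without replicate 2 of the day 1 hearts the adjusted p was 0.0539 for Acadvl, 0.058 for Hadha and 0.068 for Hadh. Hadh was also lost without replicate 3 of the day 1 hearts (0.0542), replicate 3 of the day 1 fibroblasts (0.0864) and replicates 2 and 3 of the 4-week fibroblasts (0.0663 and 0.0683).

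Of 48 further genes of the pathway, 47 were in the tables and tested in whole heart and 46 in fibroblasts. From day 1 to 4 weeks in the heart, 14 rose and 6 fell, with a median of 0.10, where 12.1% of all genes rose and 6.1% fell. Acsl6, a long-chain acyl-CoA synthetase, rose by 3.72, whereas Acsl3 of the same family had a log2 fold change of −3.70 and Angptl4, the secreted inhibitor of lipoprotein lipase, one of −2.80. At 14 weeks 5 rose and 2 fell (0.756% and 0.85% of all genes). At 1 year 1 rose (Fabp4) and 1 fell (Rxra), where 0.389% of all genes rose and 0.583% fell. At 1.5 years against 14 weeks 3 rose and 12 fell, where 4.91% of all genes rose and 7.86% fell. The falls took in both acetyl-CoA carboxylases, Acaca and Acacb, the receptors and coregulators Ppard, Rxra, Ncor1 and Perm1, and Pdk1. Acacb, the acetyl-CoA carboxylase that makes malonyl-CoA at mitochondria, had a change of −1.33 and Prkaa2, a catalytic subunit of AMP-activated kinase, one of −1.50. In the main gene set the direction at 1.5 years ran with transcript length. The part of transcript length in these further changes at 1.5 years was not tested. In fibroblasts 5 rose and 5 fell from day 1 to 4 weeks, where 9.28% of all genes rose and 6.2% fell. Angptl4 was at −2.75 and Mgll, monoglyceride lipase, at 2.65. Compared with the heart, 27 of 47 were lower and 7 higher in fibroblasts at day 1, where 18.7% of all genes were lower and 13.6% higher. At the later ages 22 or 23 were lower and 6 to 10 higher. Over all genes 15.7% to 18.6% were lower and 16.7% to 21% higher at those ages.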

How the data were processed

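Raw counts per gene were deposited by the authors as a table for fibroblasts and a table for whole heart, and they were used as deposited. The study mapped single-end reads to mm10 with STAR 2.5.3a and took the counts from its gene counting mode, in which a read that maps to several places, or that falls on several genes, is not counted. The annotation and the strand column were not given in the sources used here.

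Within a tissue, genes were filtered by filterByExpr, scaled by TMM and fitted on all ages of that tissue with edgeR 4.0.16 (quasi-likelihood F test, R 4.3.3), with Benjamini-Hochberg adjustment over all genes tested and a threshold of 0.05. A joint fit over the 27 samples gave the tissue differences and the interaction. The SE was taken as the absolute log2 fold change over the root of F. Levels are CPM on the TMM-scaled library. The tests were checked on simulated counts with 200 changed genes and the same spread for every gene. That spread was smaller than the common biological coefficient of variation of the fits (71.8% in heart, 87.9% in fibroblasts and 83.6% jointly). The check therefore does not show how the tests perform at the spread of these data. Alternatives were library size only, other filters, DESeq2 1.42.0, a replicate block, a transcript-length offset (lowess span 0.3), the compared groups only, a 2-fold minimum and leaving out each replicate. Promoters were read with pandas 2.3.3, in Python 3.11.15, and figures drawn with matplotlib 3.10.9.

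Genes given full values were Cpt1a and Cpt1b, and the gene of each role group with the highest mean over all whole heart samples. The called genes with the largest change in each comparison were added. The gene set, the marker lists and the tests were chosen with earlier results of these data known. Same-numbered samples did not deviate together across ages, nor between fibroblasts and heart at the ages where both tissues share replicate numbers. Differently numbered samples were also only weakly correlated. With so few samples in a group, the check cannot exclude that samples were paired. The study's text says that hearts and fibroblasts isolated from them were both sequenced, and 3 fibroblast sets for each age, while the labels hold 2 at the later ages and give no link of a fibroblast sample to a heart. No 2 samples of a group had identical counts.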

Additional observations from a re-analysis of the deposited data

Results flagged for a closer look

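For 13 genes the interaction term of edgeR's joint fit showed a postnatal change, 4 weeks against day 1, that was unequal in fibroblasts and whole heart. The values are log2 changes in fibroblasts minus those in whole heart. They were 1.08 for Cpt1a, -2.56 for Ech1, -1.89 for Hadhb, -1.70 for Lpl, -1.68 for Echs1, -1.50 for Cpt2, -1.35 for Acaa2, -1.34 for Decr1, -1.23 for Acads, -0.96 for Acadvl, -0.96 for Hadh, -0.89 for Acadm and -0.75 for Hadha. Of these, 8 were called under all alternatives other than leaving out replicates and 10 without each replicate in turn.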

How the results depend on the processing

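The number of the 38 genes called in whole heart at 4 weeks against day 1 was 10 with a 2-fold minimum, and leaving out each replicate gave 16 to 22. Etfdh, called there as a rise of 0.51, had a log2 fold change of -0.01 with library size only. At 14 weeks against 4 weeks the count was 2 with library size only, 9 with the length offset, 8 with the length offset and the replicate block, 11 with DESeq2, 2 with the compared groups only, 1 with a 2-fold minimum and 1 to 4 without each replicate. At 1 year against 14 weeks it was 0 with library size only, no filter, the block or a 2-fold minimum, 4 with DESeq2, 6 with the compared groups only and 0 without any replicate. At 1.5 years it was 5 with the length offset, 3 with that offset and the block, 5 with the compared groups only, 4 with a 2-fold minimum and 2 to 9 without each replicate, and Acot13 went to 0.00 in both fits with the offset.

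In fibroblasts the count over 5 ages was 14 with DESeq2 and 4 to 10 without each replicate. At 4 weeks it was 4 with the block, with or without the length offset, and 1 with a 2-fold minimum. At 14 weeks it was 5 with a minimum of 10 counts, 5 with DESeq2, and 0 to 2 without each replicate. At 1 year it was 4 with the compared groups only. At 1.5 years it was 2 with library size only, no filter or a minimum of 10 counts, 0 with the block, with or without the length offset, 4 with DESeq2, 3 with the compared groups only and 0 without any replicate. Leaving out replicate 3 of 4 weeks and replicate 5 of 1.5 years, a pair high in endothelial markers and chosen after seeing the data, gave 4 at 14 weeks and 1 at 1 year, with both endothelial-high 14-week samples still in the fit. The interaction count was 21 with DESeq2 and 10 to 15 without each replicate. The cause of these shifts was not tested.

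Same-numbered samples did not deviate together (r from -0.06 to 0.10 in heart and -0.03 to 0.04 in fibroblasts across ages, and from -0.03 to 0.02 between the tissues at day 1 and 4 weeks). Differently numbered samples gave r from -0.13 to 0.11 in heart and -0.05 to 0.05 in fibroblasts. Between the tissues they gave r from -0.05 to 0.06. With so few samples in a group, these values cannot exclude a pairing. The replicate block could not be fitted for fibroblasts at 14 weeks or over 5 ages, nor for the tissue differences from 14 weeks on.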
